A study of Rattus norvegicus with 48 samples.

Results

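The late response of cerebral endothelial cells (CECs) to a fast was measured as the difference between 3 samples from rats fasted for 3 days (F3 rats) and 3 samples from rats fed ad libitum (AL rats). These are 6 of the 12 samples of the series, chosen by their labels alone. The other 6 came from rats fasted for 1 or 2 days (F1 and F2 rats), and were fitted in the same model so that day 3 could also be tested against the earlier days. All groups were adult male Wistar-Han rats without genetic modification, and food withdrawal was the only treatment. Each sample holds CECs from pooled cortices, 2 of which were combined before digestion, obtained by removal of CD11b-positive microglia followed by magnetic selection on CD31. The sorted cells therefore stand for the CD31-positive cells of the cortex, without a distinction between capillaries, arterioles and venules.

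CECs form the blood-brain barrier, the tight layer through which glucose, ketone bodies, amino acids and vitamins reach the brain by way of solute carriers. During a fast, adipose tissue releases fatty acids, the liver makes ketone bodies from them, and the brain takes up ketone bodies in place of part of its glucose. Fatty acids are ligands of the PPAR transcription factors, and PPAR target genes encode proteins of fatty acid oxidation and lipid storage. The question put to these samples was which genes of the CECs had changed by the end of the longest fast.

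The deposited values are reads per gene. Summed over 4 technical replicates they came to between 20718644 and 24779719 assigned reads in AL samples and between 24027073 and 25960874 in F3 samples. A gene was tested if all 12 samples held at least 1 of its reads, which left 13050. The test was edgeR's quasi-likelihood test, and a gene was called where its Benjamini-Hochberg adjusted p-value was at most 0.05. Normalized counts were brought to the mean depth of the libraries with TMM factors, and LFC is the Log2 fold change of F3 over AL rats unless another group is named. Only 2043 of the 13050 genes are paired with a symbol here, mainly gene names up to Ccng1 in alphabetical order together with transporters listed by the study, and 1509 of these symbols are names of genes rather than of clones. Genes are therefore named from a part of the transcriptome, and statements on a gene group cover its members with a symbol. Solute carriers have a symbol only where the study listed them as differentially expressed, so the carriers named here were chosen partly for being changed. In bulk samples, fewer cells of a type and less RNA per cell cannot be told apart.

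Of the 13050 genes 1567 were called (12%), 819 of them higher (6.28%) and 748 lower (5.73%) in F3 than in AL rats. With counts scaled by total counts only, the split was 670 higher and 951 lower. Most changes were modest. The median LFC was 0.56 among the genes called higher, a 1.47-fold rise, and -0.47 among those called lower, and 47.9% of the called genes had an absolute LFC under 0.5. Among the called genes 141 had LFCs of 1 or more and 71 had LFCs of -1 or less. The share called grew with abundance. With genes ranked by mean normalized count and cut into 4 equal bins, it was 3.83% in the lowest bin and 10.5%, 14.4% and 19.2% in the following bins, while the median standard error of the LFC fell from 0.40 to 0.09. The 3 F3 samples did not overlap the 3 AL samples for 35.6% of all genes, and this was so for 1551 of the 1567 called genes. A lack of overlap, given for some genes below, therefore adds little to a call. The count was lower with any single sample left out, between 784 without F3 sample i and 1274 without AL sample j. It came to 942 without F3 sample k and to 984 without AL sample i. A smaller group has less power, so a call lost without a sample, here and below, need not reflect that sample. Among the 1509 genes with a gene symbol 113 rose and 106 fell, which is 14.5% of them. These include 48 solute carriers listed by the study for differential expression, of which 79.2% were called. The 14.5% is raised by that choice, and the 12% of all genes tested is the background free of it.

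On the first principal component of the 500 most variable genes over the 6 samples, which held 45.6% of the variance, AL samples lay between -14.7 and -8.55 and F3 samples between 7.83 and 15.4. The second component, with 22.1%, separated samples within groups, with AL samples i and k at 14.0 and -10.5. AL samples were more spread than F3 samples. The median coefficient of variation over genes was 8.85% in AL and 7.70% in F3 samples, and the chi-square per degree of freedom between pairs of samples was 19.1 to 24.8 within AL and 10.3 to 14.1 within F3 rats.

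**Figure D1:**
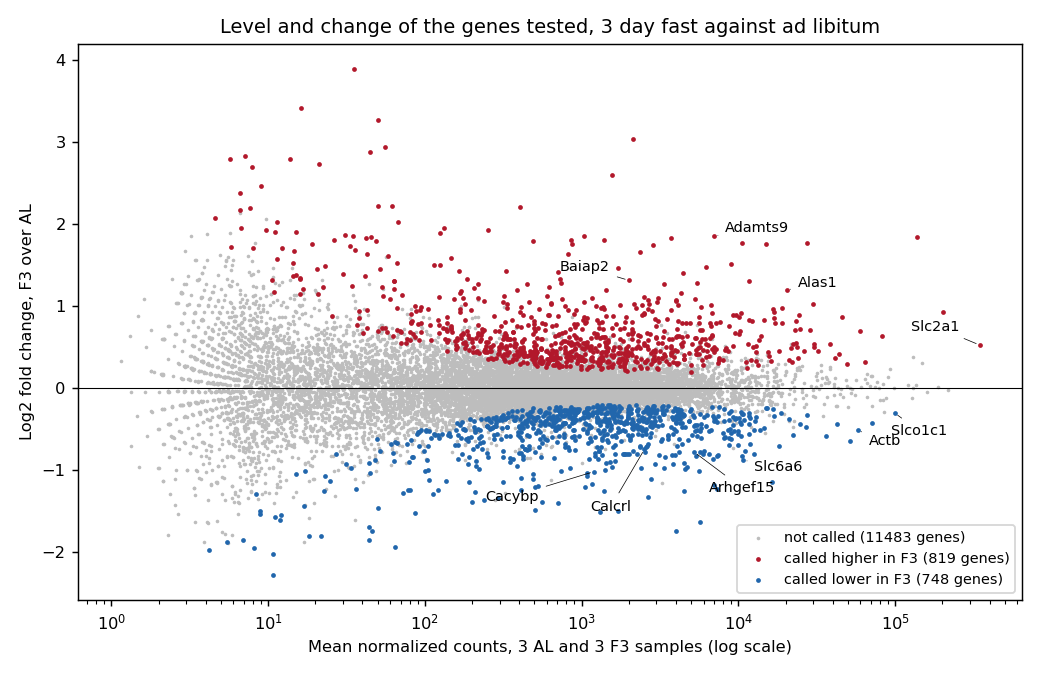
Mean normalized counts over the 3 AL and 3 F3 samples (log scale) against the Log2 fold change of F3 over AL rats, each point a gene. The 819 genes called higher and the 748 called lower lie on both sides at all levels, and Slc2a1 is the point farthest to the right.

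The sorted cells carried their endothelial identity in both groups. Of 20 endothelial markers 14 had a symbol, and their summed level ranged from 1021330 to 1084530 normalized counts in AL samples and from 1144590 to 1177460 in F3 samples, so that the groups did not overlap. That separation rested on Slc2a1, and the other 13, a sum taken after the values were seen, ranged from 764009 to 799537 in AL and from 742685 to 761433 in F3 samples, lower in each F3 sample. Of the 14 genes 3 rose and 4 fell, that is 50% called against 12% of all genes tested. Slc2a1, Slc16a1 and Adgrl4 rose, and Slco1a4, Slco1c1, Calcrl and Car4 fell. The solute carriers among them have a symbol only through the study's table of changed transporters, which raises that share. Markers of other cells were summed in the same way. The 7 microglial markers with a symbol, of 13 listed, summed to between 68.1 and 112 normalized counts in AL and between 66.5 and 148 in F3 samples. Those of pericytes and smooth muscle cells, 4 of 12, summed to between 2701 and 6512 in AL and between 2483 and 6484 in F3 samples, and so overlapped. The 4 of 9 astrocyte markers summed to between 47633 and 51829 in AL and between 42618 and 48589 in F3 samples, most of it Apoe, a lipoprotein gene that is not confined to astrocytes. The sums were at most 23.9 for 2 of 8 neuron markers and 33.1 for 1 of 6 oligodendrocyte markers, and lay between 716 and 1244 for 4 of 8 fibroblast markers. For 2 of 5 red blood cell markers they ranged from 903 to 989 in AL and from 859 to 900.2 in F3 samples, and did not overlap. The part of red blood cells in the results was not tested. None of the members of these 7 lists of other cells was called with edgeR or with DESeq2, and 2 of them, 1 of microglia and 1 of astrocytes, had an unadjusted p under 0.05. Among 8 of 19 genes that respond to tissue dissociation 0 rose and 2 fell, namely Atf3 and Bag3, and the sums ranged from 129097 to 213011 in AL and from 150366 to 167456 in F3 samples. The part of dissociation in the fall of Atf3 and Bag3 was not tested.

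Where a symbol was known, the mean normalized count was 100 or more and the groups did not overlap, the rises were led by Adamts9, Baiap2 and Akap12. Adamts9, which encodes a secreted metalloprotease that cleaves proteoglycans, had 2440, 3795 and 2914 normalized counts in AL samples and 12634, 8777 and 11546 in F3 samples. Baiap2, the gene of the membrane-bending protein IRSp53 at the actin cortex, had 1080, 1317 and 1044 in AL and 2956, 2821 and 2750 in F3 samples. For both genes the lowest F3 sample was more than 2-fold above the highest AL sample. Alas1, which encodes the enzyme of the rate-limiting step of haem synthesis, rose from 12406 ± 2072 to 28278 ± 2107 normalized counts (SD, n = 3, LFC 1.19, standard error 0.12, adjusted p = 0.000115). Agpat2, an acyltransferase of triglyceride and phospholipid synthesis, rose from 875 ± 346 to 1996 ± 380 normalized counts (SD, n = 3, LFC 1.19, standard error 0.23, adjusted p = 0.00431).

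Signalling genes followed among the 15 largest rises. Abr, a regulator of Rac, Bcar3, an adaptor of integrin signalling, and Arhgef3, a guanine nucleotide exchange factor, rose with LFCs of 0.91, 0.91 and 0.82 (standard errors 0.17, 0.14 and 0.11, adjusted p of 0.00427, 0.00114 and 0.000571). Cbarp, a regulator of calcium channels with only 194 ± 30.7 normalized counts in AL rats (SD, n = 3), had an LFC of 0.87. Aff1, a subunit of the super elongation complex, and B3galt5, a galactosyltransferase, had LFCs of 0.86 and 0.82. Their AL samples were spread widely, from 2830 to 5099 normalized counts for Aff1 and from 548 to 934 for B3galt5. Both were lost without single samples, Aff1 without AL samples i and k and F3 samples i and k (adjusted p of 0.0525, 0.0606, 0.0616 and 0.0653), and B3galt5 without AL samples i and k (0.0727 and 0.0904) and when F3 sample i, j or k was left out (0.0851, 0.0545 and 0.0559). The remaining 4 of the 15 are solute carriers and are described with their family. Their place among the largest changes is partly set by the naming, since only carriers listed by the study as changed have a symbol.

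The 15 largest falls included the vascular regulators Apln, Calcrl, Bcl6b and Arhgef15. Apln, which encodes apelin, the ligand of the receptor APJ and a factor of sprouting vessels, had 245, 284 and 311 normalized counts in AL and 116, 136 and 180 in F3 samples. Calcrl, the receptor for CGRP and adrenomedullin, had 3328, 2978 and 3170 in AL and 1858, 1987 and 1779 in F3 samples. The groups were separated by a gap larger than the spread within either for Calcrl, while for Apln the call was lost without AL sample k (adjusted p = 0.0654), F3 sample i (0.0978) and F3 sample j (0.0635). Bcl6b, an endothelial transcriptional repressor, fell by 0.84 on the log2 scale, from 13562 ± 1418 to 7587 ± 813 normalized counts (SD, n = 3, adjusted p = 0.000672). Arhgef15, a guanine nucleotide exchange factor that endothelial cells use in vessel growth, fell from 6622 ± 525 to 3836 ± 45.3 (SD, n = 3, LFC -0.79, standard error 0.07, adjusted p = 3.55e-05).

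Genes of the actin cortex and of innate defence were also among them. Afap1l1 and Afap1l2, both adaptors that bind actin filaments and Src, had LFCs of -0.84 and -0.82 (standard errors 0.09 and 0.10), and Asap3, an Arf GTPase-activating protein at focal adhesions, had an LFC of -0.85 (standard error 0.15). Casp1, the protease that matures interleukin-1 beta in the inflammasome, had 843, 764 and 967 normalized counts in AL and 424, 506 and 486 in F3 samples. Bst2, the interferon-induced virus tether tetherin, had 4039, 5729 and 5433 in AL and 2719, 3066 and 2831 in F3 samples. The highest F3 sample of Casp1 and of Bst2 was below the lowest AL sample. Capn5, a calpain protease with 274 ± 52.5 normalized counts in AL rats (SD, n = 3), had an LFC of -0.90, and its call was lost without AL sample i and F3 samples i and k (adjusted p of 0.0677, 0.0708 and 0.0662). Atf3, a stress-induced transcription factor, had 14970, 9192 and 4838 in AL and 3964, 4138 and 4664 in F3 samples, so that AL sample k lay close to the F3 samples, and the call was lost without any sample other than AL sample k (adjusted p of 0.0566 to 0.151).

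**Figure D2:**
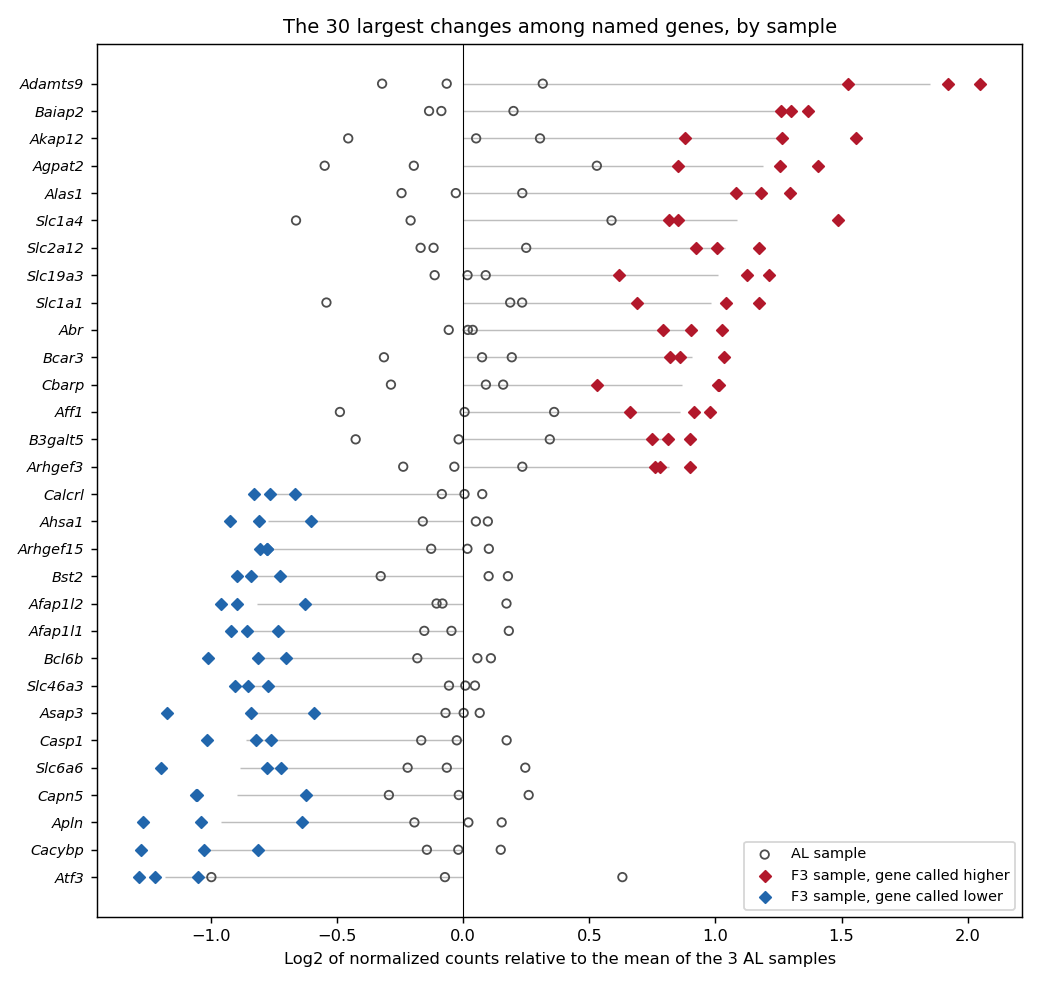
Normalized counts of each sample on the log2 scale, relative to the mean of the 3 AL samples, for the 15 largest rises and the 15 largest falls among named genes. Open circles are AL and filled diamonds F3 samples, and the groups do not overlap for any of the 30 genes, as the rule that chose them requires, although for Atf3 AL sample k lies next to the F3 samples.

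Larger changes than these exist among the genes without a symbol. By the same limits the largest rise was that of ENSRNOG00000029980, from 469 ± 159 to 3814 ± 1265 normalized counts (SD, n = 3), and the largest fall that of ENSRNOG00000000902, from 6163 ± 321 to 1828 ± 82.2. The most abundant gene with an LFC of at least 1, ENSRNOG00000007393, chosen after its values were seen, went from 60043 ± 19184 to 213767 ± 26404 normalized counts, that is from 0.257% to 0.891% of the assigned reads. Its LFC was 1.83 (standard error 0.20, adjusted p = 0.000134).

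The gene with the highest level of all, the glucose transporter Slc2a1 (GLUT1), rose further. It took between 1.12% and 1.29% of the assigned reads in AL samples and between 1.67% and 1.73% in F3 samples, and had 283813 ± 25922 and 406911 ± 7907 normalized counts (SD, n = 3, LFC 0.52, standard error 0.09, adjusted p = 0.00302). Slc2a12, a second glucose carrier (GLUT12) at a far lower level, had 1764, 1828 and 2358 normalized counts in AL and 3758, 4475 and 3981 in F3 samples. Slc16a1 (MCT1), which carries lactate and ketone bodies, had 16911, 11620 and 13395 in AL and 22422, 24493 and 25556 in F3 samples. These carriers of fuels all rose, with the 3 F3 samples above the 3 AL samples in each case.

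The study's table of ABC and SLC transporters was chosen on these samples for differential expression, so that a high share of calls is a property of the choice and not independent evidence. Of its 48 solute carriers 19 rose, 19 fell and 10 were not called, with a median LFC of -0.06, against 12% called and a median of -0.01 for all genes tested. Calls held in every alternative for 11 of the 38, and between 12 and 33 of the 48 were called when a single sample was left out. Carriers of amino acids went in both directions. Slc38a3 (SNAT3), a glutamine carrier, rose from 37691 ± 2156 to 50040 ± 4987 normalized counts (SD, n = 3, LFC 0.41, adjusted p = 0.0115), a call lost without F3 sample i (adjusted p = 0.0688). Slc1a4, a carrier of alanine, serine and cysteine, had 414, 719 and 302 in AL and 1342, 863 and 843 in F3 samples, and was lost without AL sample i (0.0573) and F3 sample i (0.0739). Slc1a1 (EAAT3), a glutamate carrier, had an LFC of 0.98 (standard error 0.29, adjusted p = 0.0433) and was lost without any of 5 samples, with only the call without F3 sample j left, and with the sample letter as a block (adjusted p of 0.0626 to 0.158).

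The taurine carrier Slc6a6 (TAUT) was the largest fall among the carriers with at least 100 normalized counts, with 13348, 11985 and 16560 in AL and 6083, 8137 and 8456 in F3 samples (LFC -0.89, standard error 0.16, adjusted p = 0.00375). Slc46a3, a lysosomal carrier, fell from 244 ± 8.78 to 136 ± 6.39 normalized counts (SD, n = 3). Both thus lay well apart in the 2 groups of samples. Among carriers of vitamins and ions, the thiamine carrier Slc19a3 (THTR2) had 4105, 4493 and 4723 in AL and 10292, 9699 and 6811 in F3 samples, and the riboflavin carrier Slc52a2 had 2215, 1906 and 2208 in AL and 3480, 3478 and 3014 in F3 samples. The zinc carrier Slc39a10 fell from 43192 ± 1323 to 28752 ± 4348 normalized counts (SD, n = 3, LFC -0.59, adjusted p = 0.00845). The groups did not overlap for any of these 3 carriers.

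Slco1a4 (OATP1A4) and Slco1c1 (OATP1C1), abundant carriers of organic anions and of thyroid hormone, were lower in F3 rats. Slco1a4 fell from 81416 ± 3859 to 60544 ± 5535 normalized counts (SD, n = 3, LFC -0.43, adjusted p = 0.00846). Paralogs of this gene are near in sequence, and multi-mapping reads had been removed. Slco1c1 had an LFC of -0.31 (standard error 0.08, adjusted p = 0.0275), lost without every sample except F3 sample j (0.0567 to 0.120). Smaller rises were those of the sodium-proton exchanger Slc9a8 (LFC 0.51, adjusted p = 0.00509) and the mitochondrial pyrimidine carrier Slc25a33 (0.52, 0.00614). Of 38 ABC transporters 2 rose and 2 fell (median LFC -0.07), and between 0 and 3 were called when a single sample was left out.

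**Figure D3:**
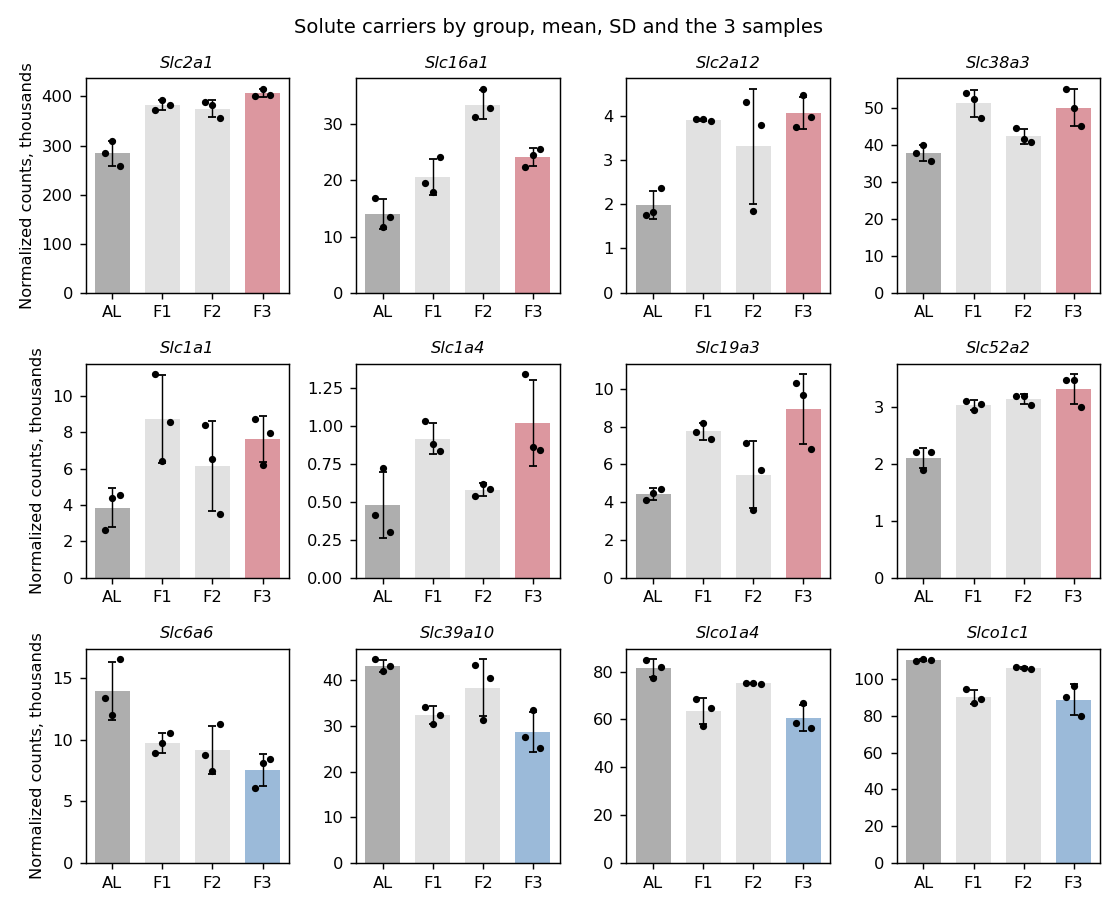
Normalized counts (axis divided by 1000) for 12 solute carriers in AL, F1, F2 and F3 rats, with bars for the mean, whiskers for the SD and points for the 3 samples of a group. In F3 rats all 3 samples lie above the AL samples for the 8 carriers drawn in red and below them for the 4 drawn in blue.

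Among the few called genes of fatty acid oxidation and PPAR targets more rose than fell. Of 10 genes of mitochondrial fatty acid oxidation 3 rose and 1 fell, with a median LFC of 0.18. Of 16 PPAR target genes 4 rose and 1 fell, with a median of 0.27. The shares called were 40% and 31.2%, against 12% of all genes tested, in short lists chosen with earlier results known. Among the called genes the lists share Acadm and Acadl. The other PPAR targets called were Angptl4 and Agpat2, which rose, and Acsl1, which fell (LFC -0.36). Acad9, an acyl-CoA dehydrogenase that also assembles complex I, had 690, 970 and 668 normalized counts in AL and 1407, 1334 and 1331 in F3 samples. Acadm and Acadl, the dehydrogenases of medium and long acyl chains, both had an LFC of 0.34 (standard errors 0.07 and 0.08, adjusted p of 0.0094 and 0.0153). Acadm was lost without F3 sample i (adjusted p = 0.0513) and Acadl without AL sample i (0.0709) and F3 sample i (0.0676). Acad11, a dehydrogenase of very long chains, went the other way, from 473 ± 18.9 to 336 ± 10.3 normalized counts (SD, n = 3, LFC -0.49, adjusted p = 0.00168). Angptl4, a PPAR target that inhibits lipoprotein lipase, had 9118, 11616 and 11570 in AL and 16587, 16990 and 14854 in F3 samples. In number, 2 of the 4 calls of fatty acid oxidation and 2 of the 5 of PPAR targets held in every alternative. The former were Acad9, which rose, and Acad11, which fell, and so went in opposite directions. The latter were Angptl4 and Agpat2, which both rose.

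Of 14 genes of fatty acid uptake and activation 0 rose, 3 fell and 11 were not called, with a median LFC of -0.14. Acsl3 and Acsl1, which join long fatty acids to coenzyme A, had LFCs of -0.42 and -0.36 (standard errors 0.09 and 0.08, adjusted p of 0.0105 and 0.0118), and Acsf2, an acyl-CoA synthetase of mitochondria, had -0.25 (0.07, 0.0418). None of these held in every alternative. Acsl3 was lost without AL sample k (0.0502) and F3 sample i (0.0597), Acsl1 without AL sample i (0.0618) and F3 sample k (0.0568), and Acsf2 without every sample except AL sample j (0.0509 to 0.178). In glycerolipid metabolism 3 of 14 genes rose and 1 fell (median LFC -0.13), all of them acyltransferases of the Agpat family. Beside Agpat2, Agpat4 rose from 952 ± 84.7 to 1309 ± 86.3 normalized counts (SD, n = 3, adjusted p = 0.00487), Agpat5 had an LFC of 0.26 (adjusted p = 0.0421) and Agpat1, the most abundant, an LFC of -0.28 (0.0188). Agpat1 was lost without AL samples i and j (0.0503 and 0.0675) and F3 samples i and k (0.0779 and 0.0632). Agpat5 was lost without any single sample (0.0585 to 0.160), with total counts only (0.0912) and with no filter on low counts (0.0856).

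Other lists of lipid metabolism held few calls. Of 7 genes of ketone body use only Slc16a1 was called, which has a symbol only through the study's table of changed transporters. Of 12 peroxisomal genes 0 rose and 1 fell. Of 6 genes of fatty acid and sterol synthesis 0 rose and Acat2, a thiolase of the sterol pathway, fell (LFC -0.57, adjusted p = 0.0264), a call lost without AL sample j (0.103) and F3 sample i (0.109). Of 16 aldehyde dehydrogenases and aldo-keto reductases Aldh3a2, which oxidises fatty aldehydes, rose (LFC 0.36, adjusted p = 0.00558) and 0 fell. None of 10 genes of branched-chain amino acid catabolism was called by edgeR or by DESeq2, with 3 at an unadjusted p under 0.05.

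Of 8 genes of the response to amino acid shortage 2 rose and 2 fell (median LFC 0.04). Slc1a4 and Slc38a2 among them have a symbol only through the study's table of changed transporters. The share called in this list is therefore partly set by that choice. Cars, a cysteinyl-tRNA synthetase, had 961, 1156 and 1062 normalized counts in AL and 1424, 1351 and 1553 in F3 samples, and Slc1a4 rose as given above. Aars, an alanyl-tRNA synthetase, did not pass the threshold, with 3737, 4120 and 4019 in AL and 4690, 4473 and 4528 in F3 samples (LFC 0.21, standard error 0.07, adjusted p = 0.0629). In all 3 genes the F3 samples lay above the AL samples, while the groups did not overlap for 35.6% of all genes tested. Atf3 and Slc38a2, a glutamine carrier induced by amino acid shortage, fell, the latter with an LFC of -0.35 (adjusted p = 0.0479, lost without each single sample, up to 0.159). Atf4, the transcription factor of this response, which is mainly regulated by translation, had 15096 ± 2174 and 14068 ± 1249 normalized counts (SD, n = 3). None of the 4 calls of this list held in every alternative, and between 0 and 3 were made without a single sample. Cars was lost without AL sample i (0.0507) and F3 sample k (0.0512).

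The promoters of these genes were searched because ATF4 binds a short element, the C/EBP-ATF response element, spelled TGATGCAA. Sequences are RefSeq's, of build GRCr8 rather than the build of the counts, and reach from 250 bases before to 50 bases after the annotated start. Of the 8 genes 7 had an entry. The element was found on either strand in Slc1a4, Cars and Aars, and in 266 of 33469 promoters of the table (0.795%). Its sites begin at base -235, 17 and -112 from the annotated start, and are written in capitals below, on the strand of the gene, which reads TTGCATCA in each. The windows are chr14:98761513-98761812 (minus strand), chr1:208225320-208225619 (minus strand) and chr19:55908232-55908531 (plus strand).
Slc1a4: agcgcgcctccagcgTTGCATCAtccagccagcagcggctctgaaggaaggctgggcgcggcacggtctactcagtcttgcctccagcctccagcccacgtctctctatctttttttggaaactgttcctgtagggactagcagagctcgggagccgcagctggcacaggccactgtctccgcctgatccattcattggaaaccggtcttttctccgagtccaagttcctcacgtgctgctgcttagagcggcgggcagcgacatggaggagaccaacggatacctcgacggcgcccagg
Cars: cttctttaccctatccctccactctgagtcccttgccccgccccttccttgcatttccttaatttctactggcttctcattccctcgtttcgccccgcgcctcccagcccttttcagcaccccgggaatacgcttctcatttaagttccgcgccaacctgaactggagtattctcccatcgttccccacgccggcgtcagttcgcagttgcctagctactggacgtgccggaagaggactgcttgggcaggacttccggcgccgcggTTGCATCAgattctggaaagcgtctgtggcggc
Aars: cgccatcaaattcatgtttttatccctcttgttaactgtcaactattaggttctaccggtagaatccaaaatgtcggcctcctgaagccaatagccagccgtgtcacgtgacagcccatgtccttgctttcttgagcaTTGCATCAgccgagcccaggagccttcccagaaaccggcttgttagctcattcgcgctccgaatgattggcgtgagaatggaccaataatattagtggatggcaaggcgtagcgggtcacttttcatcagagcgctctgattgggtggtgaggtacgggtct
These are 2 of the 3 called members with an entry and 1 member that was not called. A match is a description of the sequence and not a measured binding site.

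Some heat shock co-chaperones were lower in F3 rats. Of 9 genes that assist HSP90 or HSP70, 0 rose, 4 fell and 5 were not called, with a median LFC of -0.30. Cacybp, a partner of the ubiquitin ligase subunit SIAH1 and of HSP90 co-chaperones, had 1454, 1585 and 1781 normalized counts in AL and 913, 789 and 663 in F3 samples. Ahsa1, which activates the ATPase of HSP90, had 2384, 2851 and 2759 in AL and 1753, 1522 and 1402 in F3 samples, and its paralog Ahsa2 fell from 1280 ± 78.3 to 871 ± 54.1 (SD, n = 3, adjusted p = 0.0047). The groups did not overlap for any of the 4 genes, and the calls of these 3 held in every alternative. Bag3, a nucleotide exchange factor of HSP70, had an LFC of -0.30 (adjusted p = 0.0269) and was lost without every sample except AL sample k (0.0545 to 0.105). Of the heat shock element, the core GAANNTTC was found in the promoters of Cacybp and Bag3, 2 of the 7 members with an entry and 2 of the 4 that fell, and in 8.59% of all promoters. The windows are chr13:74981190-74981489 (minus strand) and chr1:192533210-192533509 (plus strand), with the core in capitals at base -12 and -132.
Cacybp: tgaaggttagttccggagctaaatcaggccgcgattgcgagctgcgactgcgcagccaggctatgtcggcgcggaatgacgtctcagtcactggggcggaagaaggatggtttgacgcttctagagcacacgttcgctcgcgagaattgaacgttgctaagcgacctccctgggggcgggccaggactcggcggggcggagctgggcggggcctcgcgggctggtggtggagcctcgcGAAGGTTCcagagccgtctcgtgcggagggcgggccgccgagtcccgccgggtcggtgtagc
Bag3: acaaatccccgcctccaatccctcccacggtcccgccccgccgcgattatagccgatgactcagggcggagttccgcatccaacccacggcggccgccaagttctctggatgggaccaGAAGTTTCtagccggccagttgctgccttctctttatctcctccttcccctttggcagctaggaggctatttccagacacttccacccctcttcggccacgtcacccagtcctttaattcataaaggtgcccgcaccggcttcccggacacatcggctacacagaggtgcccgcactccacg
The inverted core TTCNNGAA (8.77% of all promoters) and the longer element of 3 units (0.798%) were found in 0 of the 7.

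Further pairs of list and motif brought the number searched to 11. The PPAR response element (a direct repeat with a spacer of 1 base) was in 0 of 11 PPAR targets and 0 of 8 genes of fatty acid oxidation with an entry (0.0538% of all promoters), and its looser form with 2 bases open in 0 of the 11 targets (0.415%). The FOXO element GTAAACA was in 4 of 12 genes of the insulin, AKT and FOXO list, 1 of them the called gene Bcl2l11 (3.78%). The E-box CACGTG was in 1 of 2 clock genes (6.42%), the cAMP element TGACGTCA in 1 of 5 dissociation genes (1.83%), and the looser form TGATGNAA in the same 3 genes of the ATF4 list (3.98%). No match says only that these letters are not in this window.

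Genes of secretion and proteolysis followed. Of 18 genes of folding and glycan assembly in the endoplasmic reticulum 1 rose and 1 fell, and Calr, the chaperone calreticulin, fell from 10802 ± 490 to 8369 ± 359 normalized counts (SD, n = 3, LFC -0.37, adjusted p = 0.00502). Of 26 ADAM and ADAMTS proteases Adamts9 rose and 3 fell (median LFC 0.01). The shares called in these 2 lists, 11.1% and 15.4%, were near the 12% of all genes tested. Adam17, the sheddase of TNF and of many receptors, had 6548, 6619 and 7060 in AL and 4633, 4736 and 4615 in F3 samples. Adamtsl2, a matrix protein related to these proteases, fell from 1648 ± 209 to 996 ± 59.5 (SD, n = 3, adjusted p = 0.00139), and Adamts1 had an LFC of -0.61 (adjusted p = 0.0262), lost without AL samples i and j and F3 sample j (0.0985, 0.071 and 0.0524). For Adam17 the highest F3 sample lay below the lowest AL sample, while the groups did not overlap for 35.6% of all genes tested.

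Receptors of vascular signalling changed in both directions. Of 18 genes of BMP and activin signalling 0 rose and 2 fell (median LFC -0.16). Acvr1 (ALK2), a type I receptor for BMPs, had 6062, 5811 and 6354 normalized counts in AL and 3967, 4377 and 3828 in F3 samples. Acvrl1 (ALK1), the endothelial receptor of BMP9, had 18150 ± 852 in AL and 15123 ± 73.6 in F3 rats (SD, n = 3, LFC -0.26, adjusted p = 0.0231), and was lost without AL sample j or any F3 sample (0.0685 to 0.0802). Of 20 vasoactive and angiogenic ligands and receptors 2 rose and 2 fell (median LFC 0.19), the latter being Apln and Calcrl. Agtrap, which draws the angiotensin II receptor into the cell, rose (LFC 0.38, adjusted p = 0.00802), as did Ackr3 (CXCR7), a scavenger receptor of CXCL12 (0.50, 0.0169), the latter lost without AL sample k (0.0656) and F3 sample i (0.0875). Of 16 adhesion G protein-coupled receptors 3 rose and 0 fell, and all 3 calls held in every alternative. Adgrl4 (ELTD1), an endothelial receptor, had 23105, 27279 and 25520 in AL and 36957, 36670 and 33297 in F3 samples. Adgrl2 (latrophilin 2) and Adgrg1 (GPR56) had LFCs of 0.61 and 0.70 (adjusted p of 0.00475 and 0.0051). Of 10 Wnt and beta-catenin genes 0 were called by edgeR and 1 by DESeq2, with 4 at an unadjusted p under 0.05.

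Genes that act on the actin cytoskeleton moved in both directions. Arhgap31, a GTPase-activating protein of Cdc42 and Rac1, had 14426, 19291 and 17019 normalized counts in AL and 32278, 28202 and 28768 in F3 samples. Arhgap29, a GTPase-activating protein abundant in endothelium, had 14629, 15020 and 13978 in AL and 10639, 11287 and 11050 in F3 samples. These abundant regulators thus changed in opposite directions. Arhgap27 and Arhgap33 rose (LFCs of 0.62 and 0.61, adjusted p of 0.000778 and 0.00145), and Arhgap20 and Arhgef5 fell (-0.69 and -0.46, 0.00568 and 0.00779). Of 33 genes of actin, the Arp2/3 complex and the WAVE complex 2 rose and 2 fell (median LFC -0.02). Actb, the actin of non-muscle cells, fell from 68000 ± 3081 to 47370 ± 3557 normalized counts (SD, n = 3, LFC -0.52, adjusted p = 0.00176), and Actr3 of the Arp2/3 complex had an LFC of -0.41 (adjusted p = 0.002). Actb has near-identical pseudogene copies, with which reads could have been lost in counting. Because Actb is often taken as a reference gene, its fall here is stated relative to the TMM scaling, and it fell under every other scaling.

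Of 43 Arf GTPases, clathrin adaptors and caveolins 0 rose and 2 fell, namely Cav1 and Cav2, which encode the coat proteins of caveolae. Cav1 had 13637, 14810 and 15807 normalized counts in AL and 8591, 10217 and 8555 in F3 samples. Cav2 had an LFC of -0.41 (adjusted p = 0.016), and was lost without AL sample k and F3 samples i and k (0.0698, 0.0577 and 0.0691). Of 9 annexins, which bind membranes in the presence of calcium, 2 rose and 2 fell. Anxa1, an anti-inflammatory annexin, had 512, 534 and 590 in AL and 347, 339 and 287 in F3 samples, and Anxa9 rose from 169 ± 5.12 to 267 ± 32.2 (SD, n = 3). The abundant Anxa3 rose (LFC 0.36, adjusted p = 0.0122), lost without AL sample i (0.0541) and F3 sample i (0.0686), and Anxa6 fell (-0.43, 0.0104), lost without F3 sample k (0.0505). Of 23 genes of cAMP signalling and A-kinase anchors Akap12 rose, with 2042, 2434 and 1437 in AL and 5793, 3621 and 4734 in F3 samples, and 1 gene fell. The F3 samples of Akap12 differed among themselves more than those of most genes above, but all exceeded the highest AL sample.

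Of the pumps, 18 genes of the ATP synthase and its assembly held 1 rise and 1 fall, with Atpaf1, an assembly factor, rising from 335 ± 34.3 to 496 ± 42.5 normalized counts (SD, n = 3, adjusted p = 0.00388). Of 18 vacuolar ATPase genes 0 rose and Atp6v0a1 fell, with 11029, 10893 and 10798 in AL and 6356, 7396 and 7366 in F3 samples, while the list had a median LFC of -0.10. Of 29 identifiers of ion pumps and lipid flippases 0 rose and 2 fell, among them Atp2a3, a calcium pump of the endoplasmic reticulum (LFC -0.44, adjusted p = 0.00657). Car4, the luminal carbonic anhydrase of capillaries, fell from 7695 ± 628 to 5309 ± 672 (SD, n = 3, adjusted p = 0.00721). The abundant genes Acer2, a ceramidase, and Ahnak, a scaffold at the plasma membrane, named after their values were seen, rose 1.62-fold and 1.54-fold (adjusted p of 0.00305 and 0.0312), the latter lost without AL samples i and k (0.121 and 0.0637) and F3 samples i and k (0.110 and 0.0906).

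Among genes of cell death and defence, 2 of 26 members of the BCL2 family and caspases rose and 3 fell (median LFC -0.01). Apaf1, the core of the apoptosome, had 1320, 1268 and 1250 normalized counts in AL and 856, 962 and 847 in F3 samples. Bcl2l11 (BIM), a death-promoting FOXO target, rose (LFC 0.59, adjusted p = 0.0283), and was lost without any sample other than AL sample j (0.0569 to 0.106). Of 22 complement, chemokine and interferon-induced genes 0 rose and 2 fell, Casp1 and Bst2, with a median LFC of -0.35, and between 2 and 5 were called without a single sample. Of 11 hypoxia-responsive genes Angptl4 and Slc2a1 rose and Apln fell. Slc2a1 has a symbol only through the study's table of changed transporters. The remaining lists held few calls. They were 1 higher and 1 lower of 22 autophagy genes, 1 and 0 of 14 genes of insulin, AKT and FOXO signalling, 3 and 2 of 30 cell cycle genes, 0 and 1 of 17 genes of ribosome biogenesis and nucleotide synthesis, 1 and 0 of 7 aminoacyl-tRNA synthetases and scaffold genes, 1 and 2 of 15 genes of the amyloid precursor family, 0 and 1 of 2 clock genes, and 0 and 2 of 7 angiomotins and YAP-linked genes. In the last list Amot, an angiomotin, had an LFC of -0.42 and Ankrd1, a YAP target with 20.3 ± 2.33 normalized counts in AL rats (SD, n = 3), one of -1.06 (adjusted p of 0.0131 and 0.0388). Amot was lost without AL sample k (0.0543) and F3 sample i (0.07), and Ankrd1 without any single sample (0.0575 to 0.127). In all, the 37 pathway lists held 629 tested members, of which 40 rose and 53 fell, or 14.8%, against 14.5% of all genes with a gene symbol. Both shares include solute carriers that the study had listed for differential expression. Over all genes tested 12% were called.

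**Figure D4:**
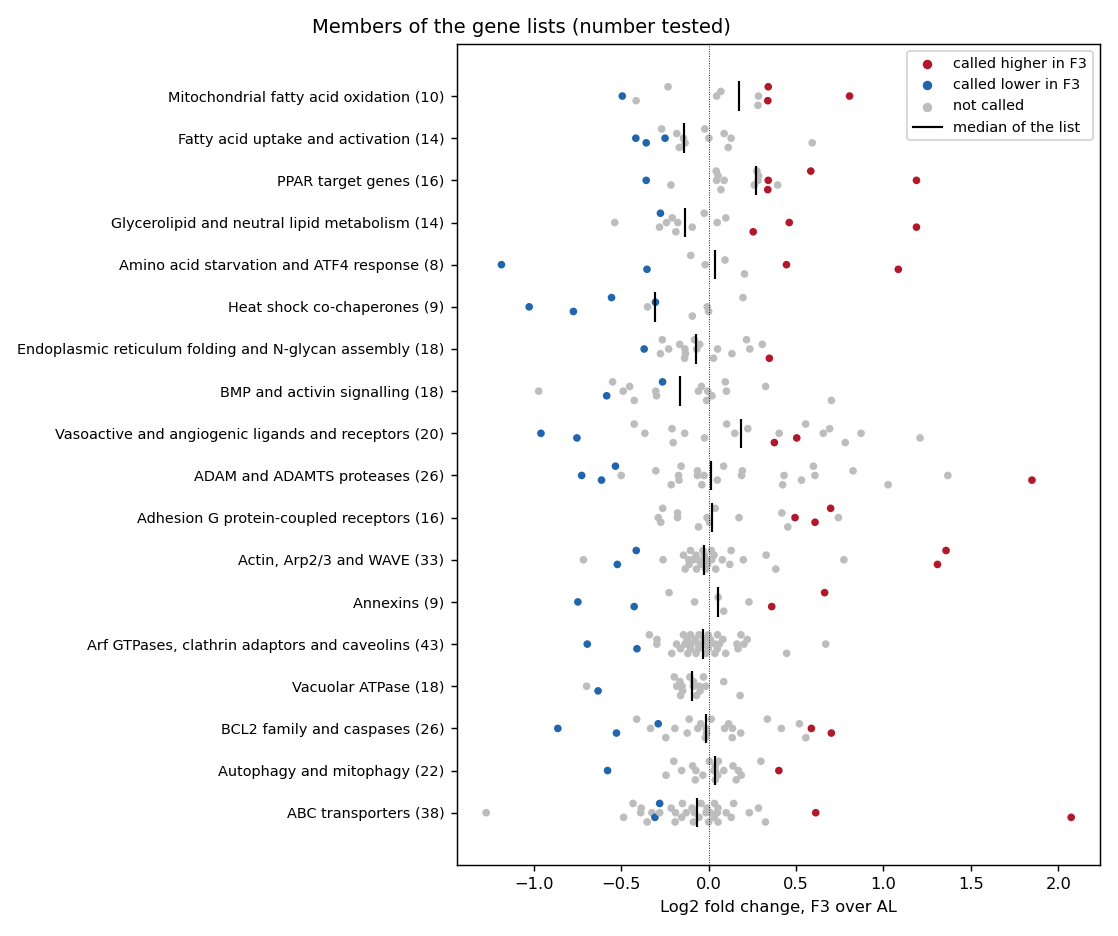
Log2 fold change of F3 over AL rats for each tested member of 18 gene lists, with the number tested in brackets and a line at the list's median. Called genes are red or blue and others grey. Called members lie on the left only for heat shock co-chaperones (4 of 9) and on the right only for adhesion receptors (3 of 16). The latter share, 18.8%, is near the 14.5% of all genes with a gene symbol, which include carriers chosen for differential expression. The share called was 12% over all genes tested. Some other lists, such as fatty acid uptake and activation, also have called members on 1 side only.

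Day 3 was then set against the earlier days of the fast. Against F2 rats 767 genes were called (5.88%), 467 higher and 300 lower in F3 rats. This count came to 145, 426 and 299 when F3 samples i, j and k were left out in turn. Without F2 samples i, j and k it came to 660, 565 and 612. Against F1 rats edgeR called 0 genes (0%) with 586 at an unadjusted p under 0.05, and DESeq2's Wald test called 24. The comparisons with AL rats share the AL samples, and their LFCs are therefore given side by side only. Adamts9 had an LFC of 1.53 in F1, 0.22 in F2 and 1.85 in F3 rats, and differed between F3 and F2 rats (LFC 1.63, standard error 0.21, adjusted p = 0.00262). Bcl6b had -0.69, -0.15 and -0.84 and differed in the same way (LFC -0.69, standard error 0.12, adjusted p = 0.0081). For others no difference between day 3 and day 2 was shown. Akap12 had 1.24, 1.08 and 1.26 and Slc2a1 had 0.43, 0.40 and 0.52 in F1, F2 and F3 rats. Between F3 and F1 rats the LFC was 0.32 (standard error 0.21) for Adamts9, -0.40 (0.11) for Adamtsl2, -0.38 (0.09) for Atp2a3 and 0.35 (0.12) for Acad9, none of which passed the threshold, which does not show that the days are alike.

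**Figure D5:**
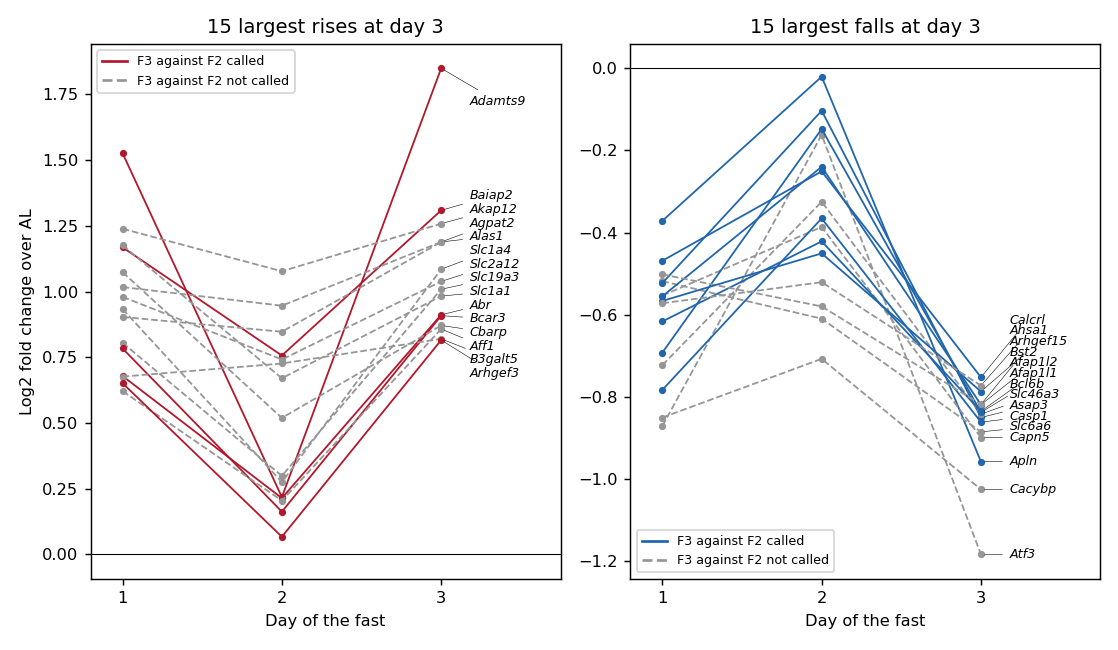
Log2 fold change over AL rats at days 1, 2 and 3 of the fast for the 15 largest rises (left) and the 15 largest falls (right) of F3 rats. Solid coloured lines mark genes that differed between F3 and F2 rats by the direct test and dashed grey lines those that did not. The values at day 2 mostly lie nearer to 0 than those at day 3. The genes were chosen for their extreme values at day 3, which by itself makes values at another day tend to lie nearer to 0.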

How the data were processed

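RNA of sorted rat CECs was sequenced as a stranded poly(A) library. Per the study's methods, the authors aligned reads with STAR to Ensembl's Rnor_6.0 genome, removed multi-mapping reads and counted reads per gene with HTSeq-count; the strand setting is not given in the sources used here. The deposited values are raw read counts for 4 technical replicates of each of 12 samples, which were summed. Samples were grouped by their labels. edgeR 4.0.16 (quasi-likelihood test, TMM, R 4.3.3) was fitted to all 12 samples with 4 group means, for the 13050 genes with at least 1 read in each sample, with Benjamini-Hochberg adjustment over all of them. Data were simulated with 12817 genes, of which 200 with a mean of at least 100 reads were changed 2-fold. The comparison of F3 with AL rats recovered 97.5% of these, and 6.7% of calls were unchanged genes. Changes smaller than 2-fold, or in genes with fewer reads, were not simulated, so the 97.5% does not cover them. Replicates came from separate isolations. Named genes are the 15 largest rises and falls with a symbol, at least 100 mean normalized counts and no overlap. The others were mostly taken from up to 6 called and 3 uncalled members of each gene list. Not every such member is named, and 91 of the 93 named genes were called, so uncalled members are mostly left out. Gene members and lists were chosen with earlier results of these data known. Symbols came from the study's supplementary tables, whose comparison columns (fold changes and p-values) were not used. The study's table of transporters had itself been chosen for differential expression. DESeq2 1.42.0, other scalings and filters, the 6 samples compared alone, a replicate block and leaving out each sample were alternatives. Depth sets precision, and percentages of reads cover counting error only. A few results are not reported here.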

Additional observations from a re-analysis of the deposited data

Results flagged for a closer look

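The change from AL rats differed between day 3 and day 2 of the fast for 36 of the named genes, by edgeR's direct test of F3 against F2 rats at an adjusted p of at most 0.05. Over all 13050 genes 767 were called in this test (5.88%). The named genes were mostly chosen by their change in F3 against AL rats, and both comparisons use the same F3 samples. Their number and their directions are therefore partly set by that choice. In each case the value is the Log2 fold change of F3 over F2 rats. It was above 0 for Adamts9 (1.63), Arhgef3 (0.75), Bcar3 (0.75), Abr (0.70), Arhgap31 (0.67), Adgrl2 (0.65), Atpaf1 (0.64), Baiap2 (0.55), Acer2 (0.52), Agpat4 (0.47), Slc9a8 (0.45), Angptl4 (0.43), Cars (0.41), Slc25a33 (0.40), Adgrl4 (0.38) and Anxa3 (0.35). It was below 0 for Ankrd1 (-1.35), Apln (-0.94), Asap3 (-0.75), Bcl6b (-0.69), Afap1l2 (-0.58), Car4 (-0.54), Calcrl (-0.50), Casp1 (-0.50), Acsl3 (-0.49), Acvr1 (-0.45), Apaf1 (-0.44), Adamtsl2 (-0.42), Afap1l1 (-0.41), Acsl1 (-0.39), Cav1 (-0.37), Arhgef15 (-0.34), Actb (-0.33), Acsf2 (-0.33), Acad11 (-0.31) and Arhgap29 (-0.27). The test rests on 3 samples a group, and the number of genes called in F3 against F2 rats fell to 145 without F3 sample i. Groups of 3 samples were not tested for single samples that stand apart.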

How the results depend on the processing

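Of 93 named genes 91 were called, and 61 of these under every one of 17 alternatives. Of 1580 values under an alternative 1456 kept their direction and side of the threshold, 120 lost the call, 4 gained it and 0 changed sign. Most of these genes were named because they were called, which leaves little room for a change of sign. The genes called in F3 against AL rats numbered 1567, 675 at an adjusted p of at most 0.01, and between 784 and 1274 with a single sample left out. The share of them higher in F3 rats, 52.3% (exact 95% interval 49.8 to 54.8, for counting error only), was 41.3% with total counts only, 55.6% with upper-quartile scaling, 56.8% with no filter and between 46.3% and 54.9% with a sample left out. F3 against F1 rats gave 24 genes with DESeq2, 11 with no filter, 3 with only the 6 samples compared and between 0 and 1 with a sample left out. F3 against F2 rats gave 1228 with DESeq2, 226 with only the 6 samples compared, 130 at an adjusted p of at most 0.01 and between 145 and 660 with a sample left out. With the sample letter as a replicate block 1500 genes were called in F3 against AL rats (777 higher and 723 lower), 1 in F3 against F1 and 692 in F3 against F2 rats. Deviations from the group means of equal letters correlated over genes at 0.139, -0.00353 and -0.0172 between AL and F3 rats. Not every sample correlated best with its own letter. With 3 samples a group these correlations cannot decide whether the letters pair the samples. The causes of these differences were not tested. Genes with few reads had larger errors, which limits what could be called among them.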
